A study of Saccharomyces cerevisiae with 21 samples.

Results

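Trifluoperazine is a phenothiazine antipsychotic and a calmodulin antagonist that inhibits yeast growth. The data described here are the barcode counts of pooled budding yeast (Saccharomyces cerevisiae) grown in trifluoperazine with and without methotrexate (MTX), chosen by sample title: 4 of the 21 libraries of the study. Replicates A and B grew for 96 h in 17.5 µM trifluoperazine with 10 µg/mL MTX, and replicates A and B grew for 96 h in 17.5 µM trifluoperazine without MTX. All 4 samples came from the same in-house strain library in synthetic defined medium with glucose and leucine, with passages every 24 h. The 4 libraries without drug at 96 h, with and without MTX, serve for comparison. The files hold 361 strain barcodes in each of 62 pools. A pool is named by a pair of proteins, 61 pairs made from 44 proteins, except for 1 reference pool that is named without a protein pair.

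The assay splits the enzyme dihydrofolate reductase into fragments that are fused to a pair of proteins. When the pair comes together, the fragments fold into an enzyme that resists MTX, while MTX blocks the cell's own enzyme. Under MTX a strain therefore multiplies according to how much working reporter it holds, and without MTX the same strains compete without that requirement. The strains differ in genetic variants across the genome, which the barcodes mark. The genotypes were not used here, so a strain is known only by its barcode number. The labels do not say which reporter, if any, the reference pool carries, nor what name endings such as 40_2 or 43_ref2 mean.

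The 4 libraries held 5834666 to 8229811 reads. A single pool in a library held 4497 to 645870 reads, and the pool of TPO1 and TCB2 held the fewest reads in 3 of the 4 libraries. The share of strain and pool combinations without a read was 15.9% and 19.4% with MTX, against 3.38% and 3.33% without it. The chi-square statistic of replicate A against B, divided by its degrees of freedom, was 124 with MTX and 106 without, so read counts differed by more than sampling noise. It was taken over whole libraries, so it mixes differences in pool depth with those in shares within pools. ERG11 with ERV25, for example, held 30824 and 645870 reads in MTX replicates A and B. Log2 shares correlated between replicates with r = 0.905 and r = 0.907 across the tested combinations. The labels do not say that replicates came from separate cultures, so p-values measure the spread between these libraries, which may be technical. Reads of PCR products without molecular identifiers are not independent molecules, and bounds based on counts cover counting error only.

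The first question was how far MTX narrowed each pool. The effective number of strains, the exponential of the Shannon entropy of the strain shares, falls towards 1 as a single strain takes a pool over. In trifluoperazine without MTX the mean effective number per pool ranged from 3.89 to 101, with a median of 59.5. With MTX it ranged from 1.68 to 41.3, with a median of 16.4. The median over pools of the log2 difference was −1.73, and it was −1.74 from replicate A alone and −1.89 from replicate B alone. Both MTX replicates lay below both replicates without MTX in 62 of 62 pools. By limma, 61 of the 62 pools (98.4%) were narrower at an adjusted p under 0.05. The exception was the pair of ERG11, the lanosterol demethylase of sterol synthesis, with the polyamine transporter TPO4 (log2 difference −1.51, standard error 0.86, adjusted p = 0.10). That pool still fell from 52.5 and 46.6 effective strains to 19.5 and 15.5. Its standard error comes from the fit over all 20 libraries at 96 h, not from these 4 alone. A comparison of 2 libraries with 2 others alone could not give an exact permutation p below 0.333.

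**Figure D1:**
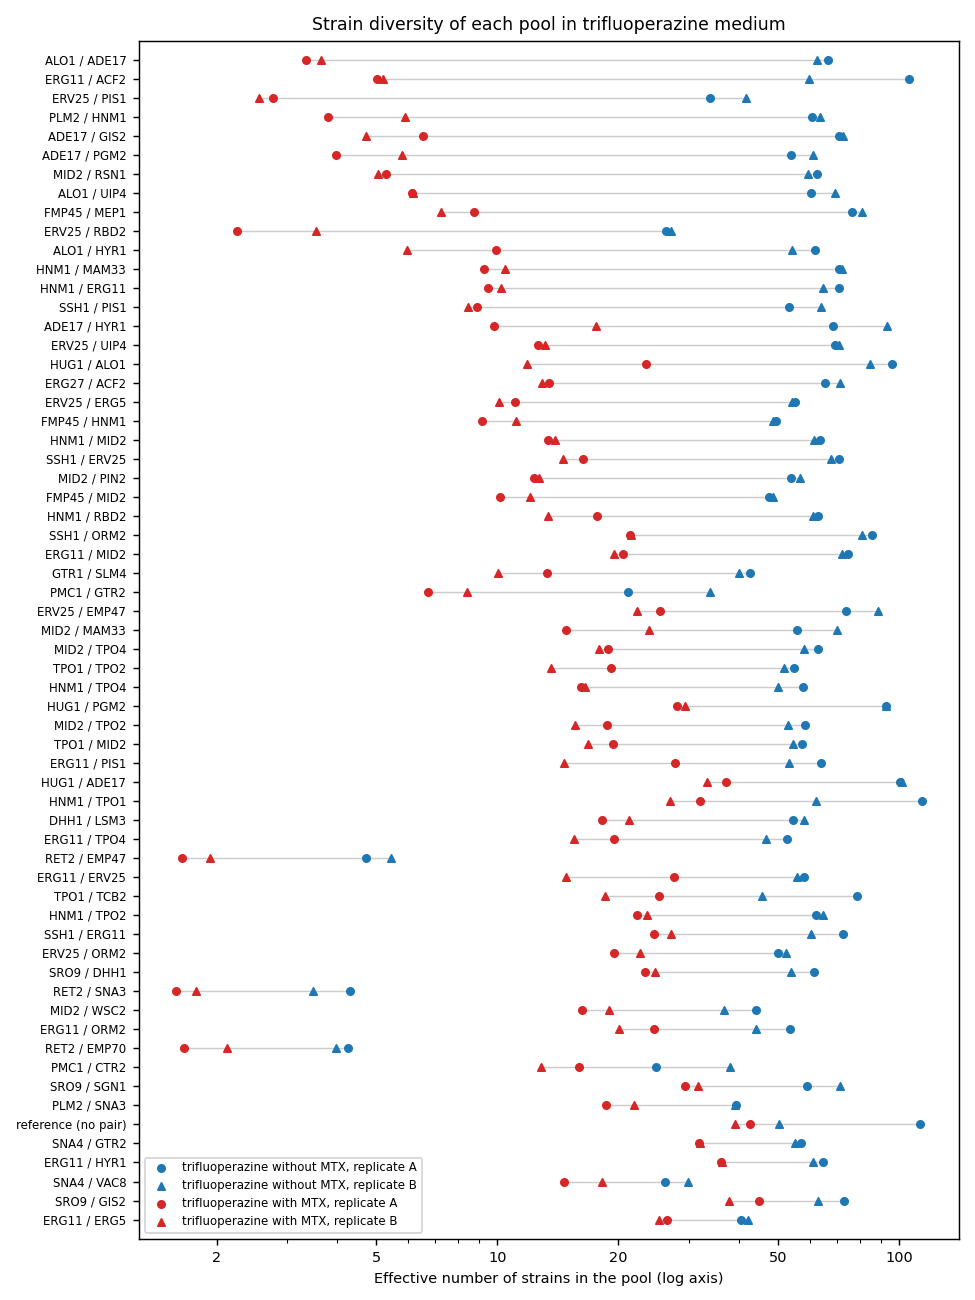
Effective number of strains in each of the 62 pools on a log axis, with pools ordered by the size of the fall. Red symbols are the MTX replicates and blue symbols those without MTX, circles for replicate A and triangles for replicate B, and the red symbols lie to the left of the blue ones in every pool.

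The largest fall belonged to ALO1, an enzyme of erythroascorbate synthesis, paired with ADE17, an enzyme of purine synthesis. That pool held 66.5 and 62.4 effective strains without MTX and 3.35 and 3.63 with it, a log2 difference of −4.21 with a standard error of 0.24 (limma, adjusted p = 1.7e-09). ERG11 with the glucanase ACF2 fell from 106 and 59.8 to 5.02 and 5.20 (−3.96, adjusted p = 5.5e-09), although its replicates without MTX stood apart. Replicate A without MTX, at 106, held only 5459 reads of this pool, against 191877 in replicate B. The cargo receptor ERV25 with PIS1, the phosphatidylinositol synthase, fell from 33.9 and 41.6 to 2.77 and 2.55 (−3.82, adjusted p = 6.9e-07). In each of these pools the MTX replicates lay close together and far from those without MTX.

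The smallest fall was that of ERG11 with ERG5, an enzyme of ergosterol synthesis that acts later than ERG11. This pool held 40.5 and 42.0 effective strains without MTX and still 26.5 and 25.2 with it (log2 difference −0.67, adjusted p = 0.015). SRO9 and GIS2, both RNA-binding proteins linked to translation, went from 73.0 and 62.9 to 44.8 and 37.8 (−0.72, adjusted p = 0.0069). SNA4 and VAC8, both of the vacuolar membrane, went from 26.2 and 29.8 to 14.7 and 18.2 (−0.77, adjusted p = 8.3e-04). All 3 were narrower with MTX. ERG11 with ERG5 and SRO9 with GIS2 stayed above the median of pools under MTX, while SNA4 with VAC8, already narrow without MTX, lay at that median. The reference pool held 42.5 and 39.1 effective strains with MTX and 112 and 50.4 without, so its fall of 0.89 on the log2 scale rests on 2 replicates without MTX that disagree.

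Strain 838 was the most abundant strain with MTX. With its reads left out of every library, an alternative chosen after the data were seen, 36 of 62 pools were narrower by limma and the median log2 difference was −0.84. The fall was kept in ADE17 with GIS2 (−3.79), in ADE17 with PGM2 (−3.73) and in ERV25 with RBD2 (−3.41), and it was −1.16 in ALO1 with ADE17. In ERV25 with PIS1 it was −0.31 and in PLM2 with HNM1 −0.44, neither of them called. With MTX strain 838 held a mean of only 2.58% of ADE17 with GIS2, 3.92% of ADE17 with PGM2 and 4.27% of ERV25 with RBD2. Leaving it out could change little there. It held 78.5% of ALO1 with ADE17, 84.2% of ERV25 with PIS1 and 74.6% of PLM2 with HNM1.

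The strain that led each pool under MTX was the same one in most pools. Strain 838 held the highest mean share with MTX in 50 of 62 pools, and in 20 without MTX. Over all reads it rose from 10.2% and 10.1% without MTX to 38.5% and 40.2% with MTX, and it held 8.43% in the single library taken at time 0. A strain held at least 20% of its pool in both MTX replicates in 54 pools, against 11 pools without MTX. At 50% the counts were 20 and 3. Replicates A and B with MTX had the same leader in 55 pools, and those without MTX in 44. Because leaders were picked by their share with MTX, their higher share there is a description of the choice.

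**Figure D2:**
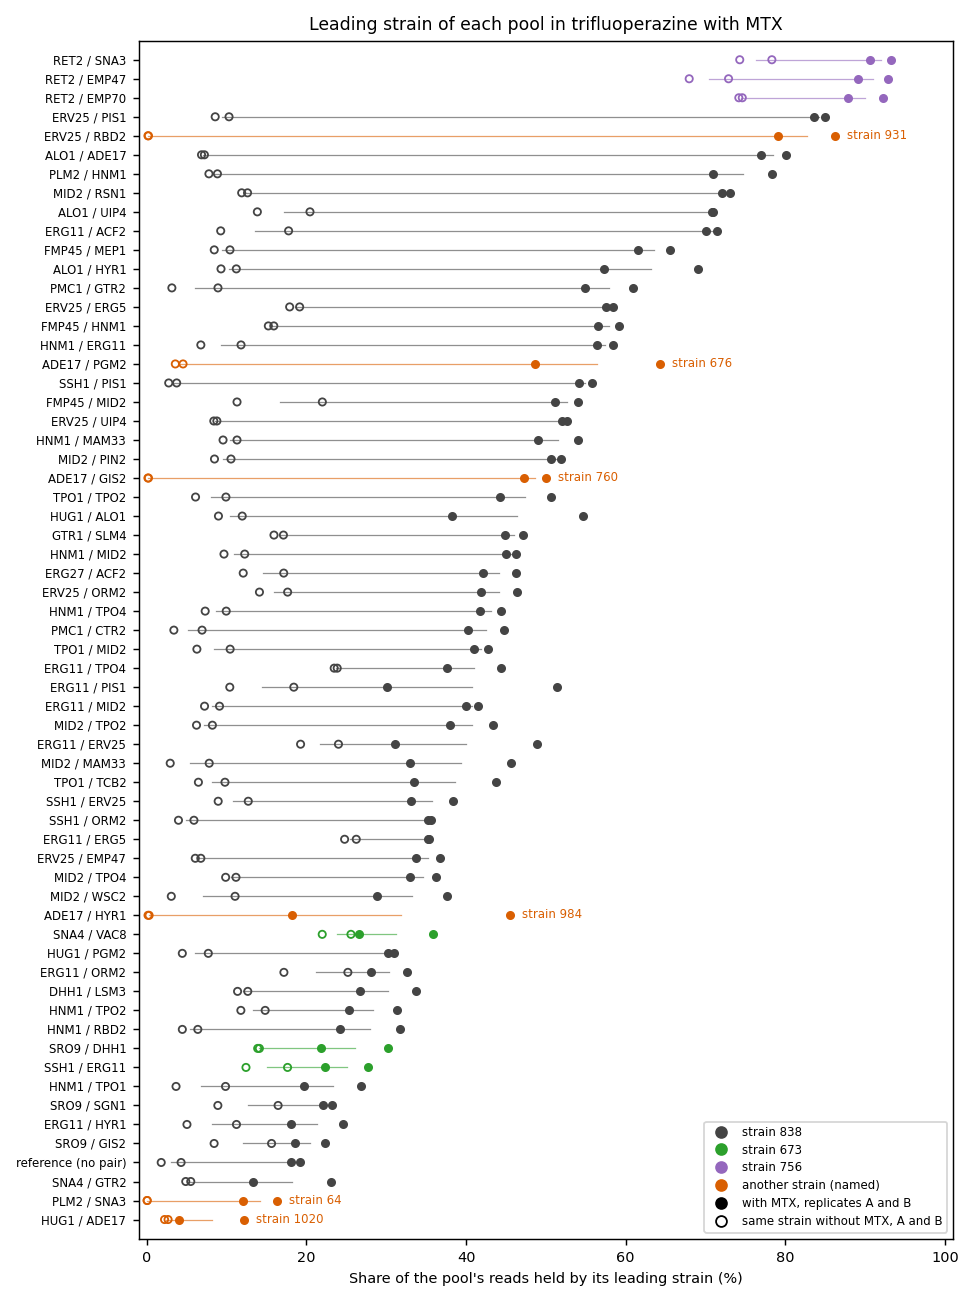
Share of the pool's reads held by the strain that led it with MTX, in percent, with filled symbols for the MTX replicates and open symbols for the same strain without MTX. Strain 838 leads 50 pools, strains 673 and 756 lead 3 each, and 6 pools have a leader of their own, named beside the symbol.

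The pairs in which strain 838 held its highest mean shares with MTX are given first, picked by that share. Over all pools the median of its mean share with MTX was 39.7%. In ERV25 with PIS1 it held 83.5% and 85.0% with MTX against 10.3% and 8.56% without (edgeR's quasi-likelihood test, log2 fold change 3.16, standard error 0.65, adjusted p = 4.3e-04). In ALO1 with ADE17 it held 80.0% and 76.9% against 6.85% and 7.21%. In PLM2, a putative transcription factor, with the choline transporter HNM1 it held 78.4% and 70.9% against 8.84% and 7.77%. In the cell wall sensor MID2 with RSN1 it held 72.1% and 73.1% against 12.6% and 11.9%. The steepest rise was in SSH1, a subunit of a protein translocation channel of the endoplasmic reticulum, with PIS1, from 2.74% and 3.73% to 55.7% and 54.2% (log2 fold change 4.09, adjusted p = 3.8e-06). Groups did not overlap in any of these pools, which was also so for 80.2% of all tested combinations.

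Strain 838 was called higher in 47 of 62 pools and lower in 0, where 6.39% of all tested combinations of strain and pool were called higher and 45.3% lower. The other 15 pools gave no call, and the fold change was positive in 60 of the 62. In the reference pool, which has no named pair, strain 838 rose from 4.29% and 1.80% to 18.1% and 19.2%. That log2 fold change was 2.61 (quasi-likelihood test of edgeR, adjusted p = 0.0017), above the strain's median of 2.19 over pools. Counted by protein, for those in at least 4 pools and with no test, a call was given in 10 of 10 pools with MID2, 6 of 10 with ERG11, 8 of 9 with HNM1 and 6 of 8 with ERV25. It was given in 1 of 5 with ADE17 and in 4 of 4 each with SSH1, ALO1 and the polyamine exporter TPO1. The 3 pools with SRO9, named after their values were seen, gave none. In the SRO9 pools its mean share was 20.5% to 24.3% with MTX and 12.0% to 12.7% without. In 4 of the ADE17 pools its mean share with MTX was 2.58% to 8.98%, and in the other it was the 78.5% given for ALO1 with ADE17. In ERG11 with ERG5 strain 838 already held 26.2% and 24.8% without MTX and reached 35.4% and 35.3% (log2 fold change 0.47, standard error 0.44, adjusted p = 0.39).

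Other strains led 12 pools, among them all 3 pools with RET2 and 4 of the 5 with ADE17. Strain 756 held at least 87.8% of the reads in both MTX replicates of each of the 3 pools with RET2, a subunit of the COPI vesicle coat. With SNA3 the share was 93.2% and 90.7% with MTX against 74.3% and 78.3% without. With the lectin-like cargo receptor EMP47 it was 92.9% and 89.1% against 72.9% and 68.0%, and with the endosomal membrane protein EMP70 it was 92.2% and 87.8% against 74.2% and 74.6%. The strain was higher with MTX in every replicate, but none of the 3 passed the test (log2 fold changes 0.27 to 0.37, adjusted p = 0.54, 0.39 and 0.51 in the same order). It held 88.8%, 36.3% and 87.0% of these pools at time 0, where the pool with EMP47 had only 3551 reads. Strain 673 led 3 pools with MTX and 23 without.

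The largest rise in trifluoperazine was that of strain 931 in ERV25 with RBD2, a rhomboid protease of the Golgi. It held 0.135% and 0.198% without MTX and 86.2% and 79.1% with it (log2 fold change 8.96, standard error 0.78, adjusted p = 2.7e-07), and 0.463% at time 0. Strain 857, which led this pool without MTX at 30.7% and 29.5%, fell to 0.0110% and 0.0181%. Strain 838 held 3.02% and 5.51% there with MTX against 8.65% and 7.53% without, which was not called (adjusted p = 0.16). The same strain 931 was called higher in 9 and lower in 11 of the 59 pools where it was tested. Over all tested combinations 6.39% were called higher and 45.3% lower. In ADE17 with GIS2 it fell from 1.18% and 0.673% to 0.00983% and 0.0102%.

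The pools with ADE17 each had a leader of their own, apart from ALO1 with ADE17. With GIS2 the leader was strain 760, which rose from 0.196% and 0.132% to 50.0% and 47.2% (log2 fold change 8.21, adjusted p = 3.8e-07), and strain 540 held a further 18.3% and 33.4%. With PGM2, a phosphoglucomutase, strain 676 rose from 3.56% and 4.53% to 64.3% and 48.6% (log2 fold change 3.80, adjusted p = 4.0e-05). With HYR1, a peroxidase that senses peroxide, strain 984 rose from 0.144% and 0.279% to 45.5% and 18.2% (log2 fold change 7.25, adjusted p = 1.1e-05), with a wide gap between replicates. With HUG1, an inhibitor of ribonucleotide reductase made after DNA damage, no strain dominated: strain 1020 had the highest mean, from 4.05% and 12.2%. Strain 1020 was also second with MTX in HUG1 with PGM2 (mean 9.86%) and in HUG1 with ALO1 (5.28%). Strain 984 was called lower in 44 of 62 pools and higher in 3, of which ADE17 with PGM2 was another. Of 62 pools, strain 760 was called higher in 17 and lower in 0, strain 1020 higher in 17 and lower in 2. Strain 676 was called higher in 5 and lower in 5. Of all tested combinations 45.3% were called lower and 6.39% higher. Apart from strain 760, these ADE17 leaders outside HUG1 were named after their values were seen.

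PLM2 with SNA3, a protein sorted to the vacuole, had a pair of rising strains in place of a single leader. Strain 64 rose from 0.0408% and 0.0268% to 16.3% and 12.1% (log2 fold change 8.71, adjusted p = 1.0e-06). Strain 1018 rose from 0.0343% and 0.0210% to 15.9% and 11.6% (log2 fold change 8.96, adjusted p = 8.3e-06). In this pool with MTX, strain 64 had 18457 and 9978 reads and strain 1018 had 17980 and 9585. In the reference pool with MTX they differed, at 5 and 12 reads against 1354 and 1781. Whether the 2 barcodes rose independently in PLM2 with SNA3 was not tested. In the reference pool strain 252 rose from 0.0362% and 0.0158% to 9.27% and 8.07% (log2 fold change 8.42, adjusted p = 4.6e-04), below strain 838 at 18.1% and 19.2%. Strain 64 was called lower in 15 of 59 pools and higher in 6, where 45.3% of all tested combinations were called lower and 6.39% higher. Strain 1018 rose more in PLM2 with SNA3 than in the reference pool, by 5.32 on the log2 scale (adjusted p = 0.0040).

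Each share was then tested, strain by strain within a pool, over the 15974 combinations with a mean of at least 10 reads. MTX changed 8263 of them (51.7%), 1020 higher (6.39%) and 7243 lower (45.3%), by the quasi-likelihood test of edgeR at an adjusted p under 0.05, and 8228 of the called had groups that did not overlap, where 80.2% of all tested combinations did not overlap. The higher calls moved with single libraries: they numbered 499 and 468 without replicate A or B of the samples without MTX, and 741 and 691 without MTX replicate A or B. A share is relative to the rest of its pool, so the split of directions depends on the scale. Of the calls 12.3% were higher by pool totals, 21.4% by pool totals without strain 838, 28.8% by TMM over whole libraries and 34.0% by TMM within each pool. The median log2 fold change over all tested combinations was −1.83 by pool totals and −0.57 by TMM within each pool. Values below are by pool totals.

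Called strains made up 15.9% to 69.5% of a pool, with a median of 54.1% over pools. The fewest were in ERG11 with ERG5 (44 of 277), SRO9 with GIS2 (61 of 284, 21.5%), ERG11 with HYR1 (77 of 285, 27.0%), ERG11 with ERV25 (86 of 271, 31.7%) and TPO1 with the tricalbin TCB2 (73 of 229, 31.9%). The last of these had the shallowest reads. The most were in the reference pool (226 of 325), ADE17 with GIS2 (137 of 201, 68.2%), PLM2 with HNM1 (171 of 262, 65.3%), ERG11 with ACF2 (177 of 272, 65.1%) and FMP45 with MID2 (180 of 283, 63.6%). Calls were mostly lower in all of these. Higher calls numbered 43 of the 226 in the reference pool, 3 of the 137 in ADE17 with GIS2 and 24 of the 77 in ERG11 with HYR1.

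**Figure D3:**
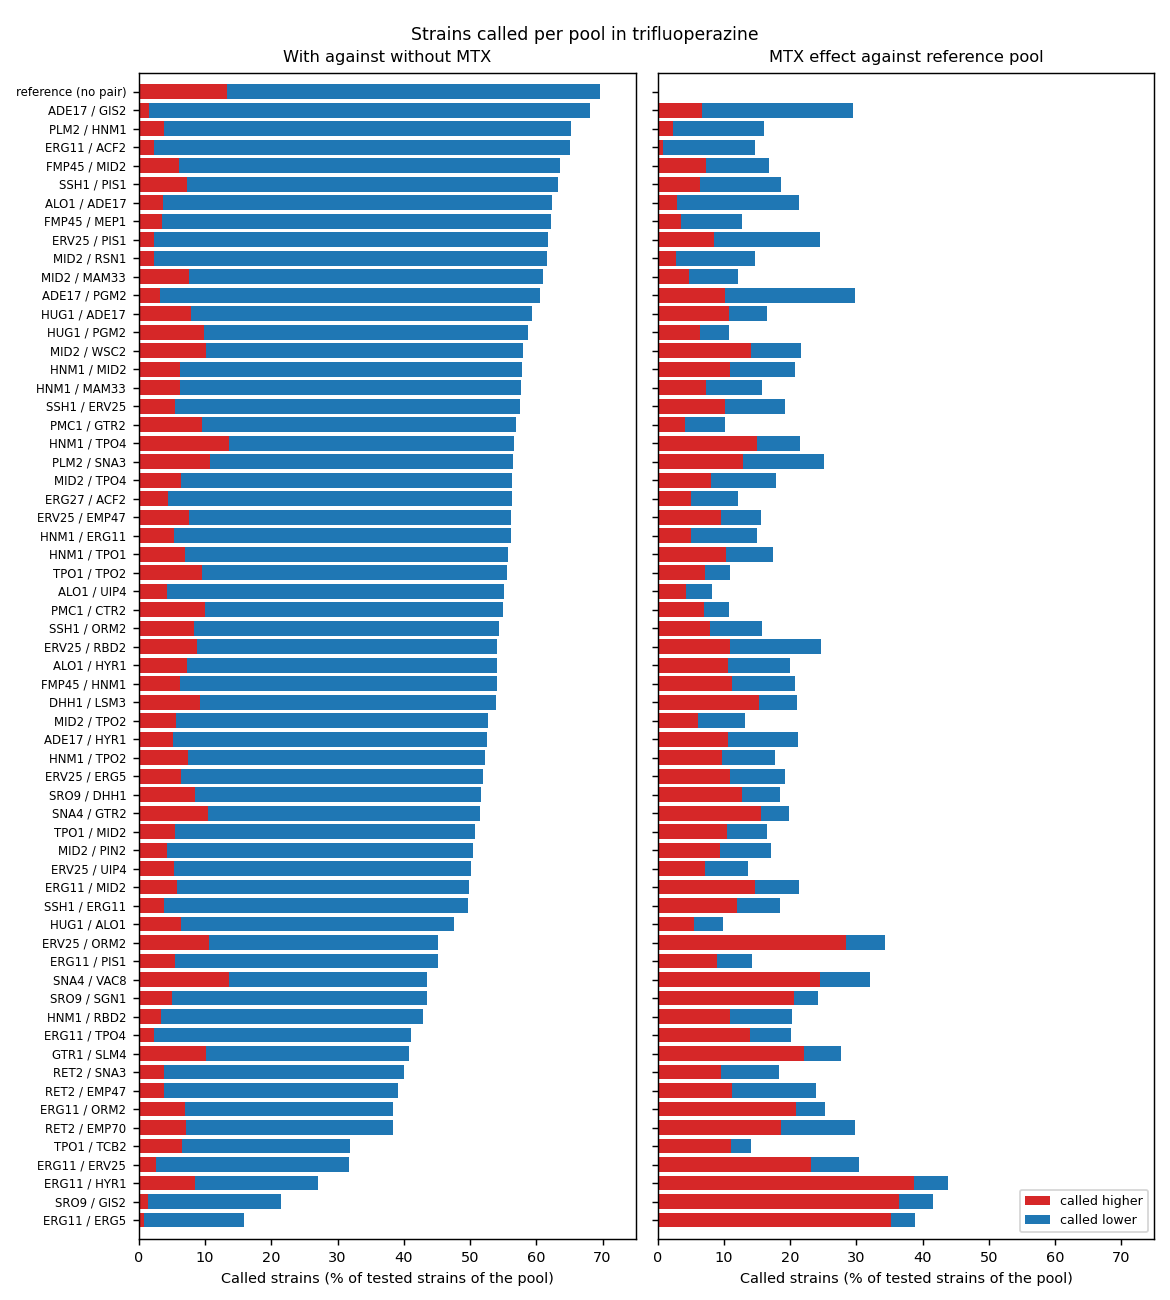
Strains called in each pool as a percentage of those tested there, red for higher and blue for lower. The left panel compares cultures with and without MTX and the right panel compares the MTX effect in a pool with that in the reference pool, in which the pools called least on the left (ERG11 with ERG5, SRO9 with GIS2, ERG11 with HYR1) have the most calls, mostly higher.

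Among the protein families listed for this description, the share called was lowest for the sterol enzymes ERG11 and ERG5. The 11 pools with ERG11 or ERG5 had 1321 of 3079 strains called (42.9%, 140 higher and 1181 lower), from the 15.9% of ERG11 with ERG5 to the 65.1% of ERG11 with ACF2. ERG27, another enzyme of sterol synthesis that was not on the list, has 1 pool, with ACF2, in which 139 of 247 were called (56.3%). The 5 pools with SRO9, DHH1, a helicase of messenger RNA decay, or GIS2 had 640 of 1379 (46.4%). The 6 pools with the antioxidant enzymes ALO1 or HYR1 had 760 of 1545 (49.2%). The 3 pools with FMP45, a plasma membrane domain protein, had 508 of 846 (60.0%) and the 5 with ADE17 had 674 of 1114 (60.5%), the highest. These figures set against the 51.7% of all combinations are counts without a test of the families.

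The other families as a whole lay between 50.3% and 56.2%. In the secretory pathway (ERV25, SSH1, RET2), 1740 of 3454 strains were called (50.4%), but its proteins differed, with 177 of 453 (39.1%) for RET2, 1108 of 2180 (50.8%) for ERV25 and 624 of 1115 (56.0%) for SSH1. By single proteins with at least 3 pools, SRO9 (346 of 887, 39.0%) and RET2 lay lowest, before ERG11 (1174 of 2796, 42.0%). Pools with PIS1 or ORM2, the latter a regulator of sphingolipid synthesis, had 826 of 1631 (50.6%). Pools with the polyamine exporters TPO1, TPO2 and TPO4 had 1134 of 2250 (50.4%). Pools with subunits of the EGO complex (GTR1, GTR2, SLM4), which relays nutrient signals at the vacuole, had 400 of 795 (50.3%), and those with vacuolar membrane proteins (PMC1, a calcium pump, SNA3, SNA4 and the copper transporter CTR2) had 689 of 1331 (51.8%). HUG1 pools had 461 of 836 (55.1%), HNM1 pools 1226 of 2197 (55.8%) and pools with the cell wall sensors MID2 or WSC2 1563 of 2783 (56.2%). Families share pools, so these counts overlap.

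The largest falls by fitted log2 fold change reached 0 reads in both MTX replicates. The counts set no limit to the fitted value there, so the folds given are bounds from 3 reads per library. Falls of strains that kept reads can exceed these bounds. An example is strain 959 in ERV25 with PIS1, from 29.7% and 25.3% to 0.00651% and 0.00442%. Strain 959 in MID2 with the mitochondrial protein MAM33 held 4.29% and 2.67% without MTX and was at least 1254-fold lower with it (quasi-likelihood test of edgeR, adjusted p = 4.3e-05). Next came strain 299 in ERV25 with RBD2, which held 3.31% and 3.66% and was at least 1051-fold lower (adjusted p = 1.0e-05). In the RET2 pool with EMP47 strain 705 held 2.05% and 2.38% and was at least 913-fold lower, and in RET2 with SNA3, from 2.79% and 2.26%, at least 623-fold lower (adjusted p = 2.1e-06 and 4.2e-06). Another such strain was 476, which in HUG1 with ALO1 held 2.02% and 2.13% and was at least 114-fold lower (adjusted p = 9.8e-07). In all, 1525 combinations had reads in both replicates without MTX and none in either with it, against 49 the other way round.

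Summed over the pools, some strains moved the same way nearly everywhere. Strain 857 fell from 3.98% and 4.39% of all reads to 0.0422% and 0.0240% (log2 fold change −5.48 by TMM, adjusted p = 2.0e-07), and it was called lower in 62 of 62 pools. Strain 705 was lower in 59 of the 60 pools where it was tested, strain 128 in 56 of 57, strain 296 in 53 of 56 and strain 521 in 51 of 57. Their summed log2 fold changes were −6.07, −5.58, −5.81 and −5.64. Strains 89 and 983 were called higher in 38 and 36 of 62 pools and lower in 0, with summed log2 fold changes of 4.69 and 5.17. Over all tested combinations 45.3% were called lower and 6.39% higher. TMM moves all strains upward against total reads, with a median log2 fold change over strains of −0.28 in place of −1.80. By total reads the changes were −6.98 for strain 857, −7.57, −7.14, −7.40 and −7.09 for strains 705, 128, 296 and 521, and 3.16 and 3.61 for strains 89 and 983.

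Other rises of summed reads lay largely in 1 pool. Strain 252 had the largest (log2 fold change 5.76, adjusted p = 6.6e-06), yet 90.2% and 92.9% of its reads with MTX lay in the reference pool. Outside that pool its share was 0.0138% and 0.0121% with MTX against 0.00949% and 0.00666% without, and it was called higher in 7 and lower in 3 of 26 pools. Strain 36 (log2 fold change 5.04) had 90.1% and 93.6% of its reads in the reference pool. Strain 359 (5.18) had 56.5% and 62.4% in SNA4 with VAC8, where it rose from 0.254% and 0.334% to 6.06% and 6.63%. Outside that pool strain 359 also had a higher share with MTX, 0.0655% and 0.0795% against 0.00722% and 0.0101%, and it was called higher in 18 of 35 pools and lower in 0. Over all tested combinations 6.39% were called higher and 45.3% lower. The summed reads of strains 252 and 36 with MTX therefore describe mainly the reference pool, while those of strain 359 do not come from 1 pool alone.

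By this test 284 of 361 strains were called (78.7%), 134 higher (37.1%) and 150 lower (41.6%). With total reads in place of TMM, 254 were called, of which 18.1% were higher in place of 47.2%, and 37 of the strains called higher by TMM had a lower mean share of all reads with MTX. Strain 673 is one of them. It fell from 10.5% and 8.92% of all reads to 7.26% and 6.90%, while TMM gave a log2 fold change of 1.09 (adjusted p = 0.017) and total reads −0.45. Within pools it was called lower in 17 of 62 and higher in 1, where 45.3% of all tested combinations were called lower and 6.39% higher. Across pools, 202 strains were called only lower, 19 only higher, 125 both ways in different pools and 15 in none. Of those called both ways, 12 were called in at least 5 pools each way, among them the leaders 931, 676 and 64.

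**Figure D4:**
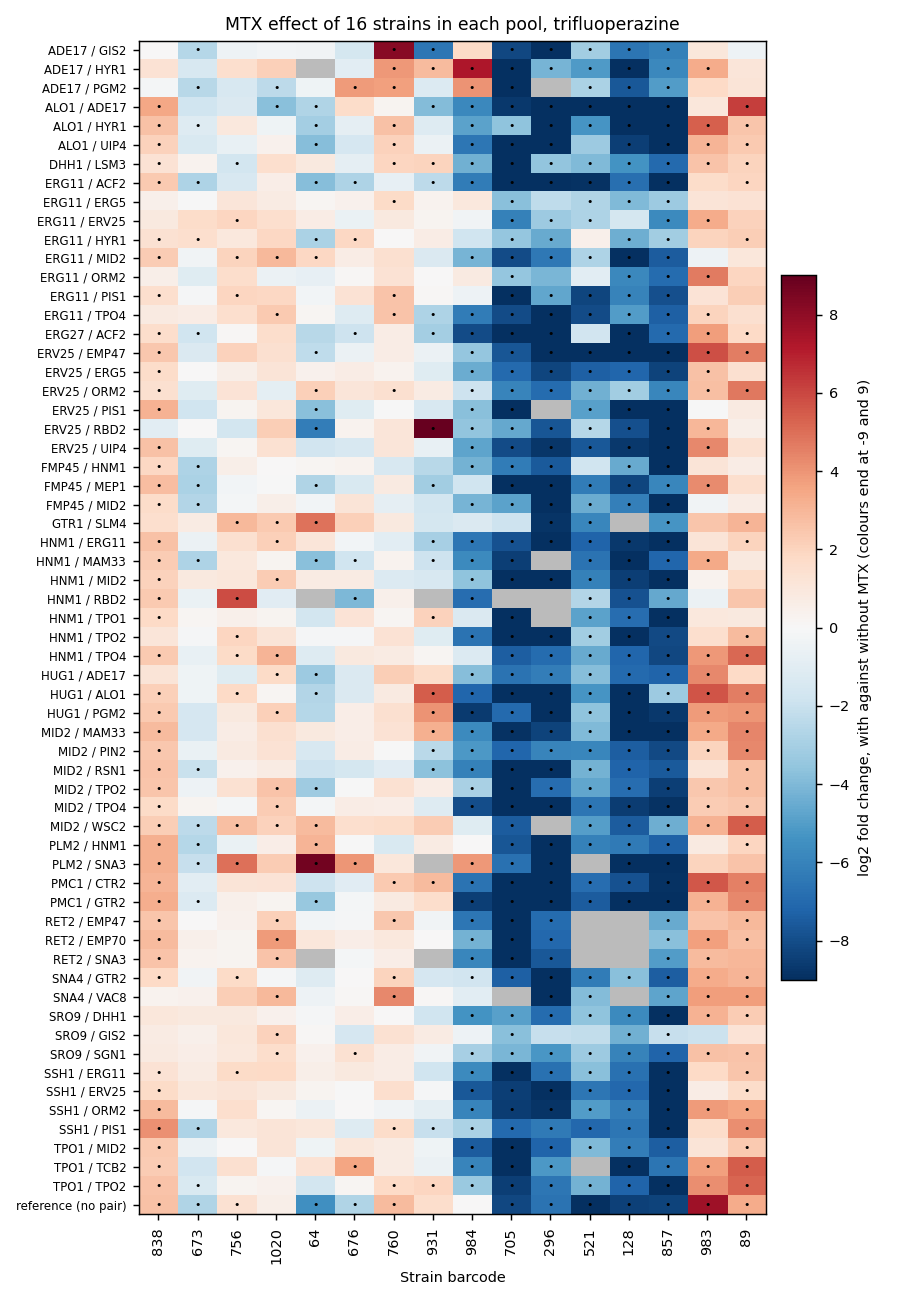
Log2 fold change with against without MTX of 16 strains (columns) in the 62 pools (rows), red for higher and blue for lower, with a dot where the change was called and grey where the strain was not tested. The strains were chosen after their values were seen: 838 is red and 857, 705, 296 and 128 are blue across most rows, while 931, 760, 984 and 64 are strongly red in 1 or a few rows.

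The reference pool offered a further scale, the change of the same strain in a pool without a named pair. The MTX effect differed from that in the reference pool in 3004 of 15142 combinations (19.8%), 1784 higher (11.8%) and 1220 lower (8.06%), again by edgeR. Replicates A and B had the same sign in 2999 of these. Across strains, the MTX effects of a pool correlated with those of the reference pool with a median r of 0.75 (0.48 to 0.84). The same reference counts enter every pool, and the reference replicates without MTX stood apart, with strain 521 at 12.0% in A and 30.3% in B. The split also moved with the scale: 59.4% of calls were higher by pool totals, 70.7% without strain 838 and 49.0% by TMM over a pool and the reference pool together. Without 1 of the 4 libraries the count was 1096 to 1479.

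The 3 pools called least against no MTX were called most against the reference, a test that subtracts the pool with the most calls against no MTX. ERG11 with HYR1 had 120 of 274 (106 higher), SRO9 with GIS2 114 of 274 (100 higher) and ERG11 with ERG5 105 of 270 (95 higher). Next in the order of fewest calls against no MTX, ERG11 with ERV25 had 80 of 263 (30.4%, 61 higher), above the 19.8% of all combinations. TPO1 with TCB2 came after it and lay below that share, with 32 of 226 (14.2%). An example is strain 521, which in ERG11 with HYR1 changed little. It held there 0.0343% and 0.0244% without MTX and 0.0351% and 0.0443% with it, where in the reference pool it went from 12.0% and 30.3% to 0.0180% and 0.00998% (difference of log2 fold changes 10.99, adjusted p = 9.3e-07). By TMM over a pool and the reference pool together, the 3 pools kept a majority of higher calls, with 73 of 109, 51 of 89 and 57 of 88. The fewest calls by number were in ALO1 with UIP4 (23 of 278, 8.27%), RET2 with SNA3 (23 of 125, 18.4%) and TPO1 with TPO2 (26 of 237). By share, ALO1 with UIP4 was followed by HUG1 with ALO1 (27 of 273, 9.89%) and PMC1 with GTR2 (27 of 264, 10.2%).

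Single strains gave the largest departures from the reference. Strain 64 in PLM2 with SNA3 was furthest above it, by 14.2 on the log2 scale (adjusted p = 7.3e-09). Strain 701 in ERG11 with ERV25 rose from 0.114% and 0.108% to 0.253% and 0.741% and was 10.7 above (adjusted p = 1.7e-06). Furthest below were 3 combinations of strain 252, whose rise in the reference pool sets the difference: in HNM1 with MAM33 it went from 0.0163% and 0.0185% to 0 reads in both replicates (adjusted p = 9.2e-05). In SSH1 with ERV25 it went from 0.0650% and 0.131% to 0.000862% and 0.000983% (adjusted p = 2.0e-05), and in ADE17 with PGM2 from 0.0882% and 0.0756% to 0.00375% and 0.00260% (adjusted p = 3.5e-05). Strains 40_2 in SRO9 with the RNA-binding protein SGN1 and 607 in SSH1 with ERV25 also reached 0 reads with MTX.

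Pools could also be set beside each other by how their strains departed from the strain's own mean MTX effect. To keep the libraries apart, replicate A of one pool was correlated with replicate B of the other, across 111 to 308 strains. The r is a description, and all pools of a replicate share its library. Replicate A and B of the same pool gave a median r of 0.63 (0.21 to 0.82). The 223 pairs of pools that share a protein had a median r of 0.04, and the 1607 that share none −0.03. The highest values were those of the RET2 pools with each other, 0.74 to 0.82. They were followed by ERG11 with ERG5 against SRO9 with GIS2, at 0.68, and ERG11 with HYR1 against the same pool, at 0.59, which share no protein. The MTX effects themselves correlated there with r = 0.68 and 0.62, under the median of 0.74 for pairs that share no protein. Among the RET2 pools that r was 0.94 to 0.96. ERG11 with ERG5, SRO9 with GIS2 and ERG11 with HYR1 had the fewest calls against no MTX. Where effects are small, a departure largely repeats the strain's mean with its sign turned, so these r cannot show a shared response. Of the 20 highest pairs, 14 share a protein, against 12.2% of all pairs.

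Whether trifluoperazine altered the response to MTX was asked by the difference between the MTX effects with and without the drug. Across combinations 0 of 15974 (0%) were called by edgeR's quasi-likelihood test, 1164 (7.29%) had an unadjusted p under 0.05 and the smallest adjusted p was 0.17. DESeq2 called 65. The smallest p belonged to strain 798 in MID2 with WSC2, another cell wall sensor, which fell from 6.23% and 7.11% to 0.234% and 0.00455% in trifluoperazine (adjusted p of the difference 0.17). Within a pool the MTX effects in trifluoperazine and without drug correlated with a median r of 0.92 across strains. The lowest was the 0.56 of SRO9 with GIS2 and the highest the 0.96 of TPO1 with TPO2. SRO9 with GIS2 was shallow with MTX and no drug, where 4 and 11 reads of strain 857 made 0.0363% and 0.0798% of it. In trifluoperazine with MTX this pool held 135271 and 86364 reads. The part of depth in its low r was not tested. Strain 931 held 80.9% and 91.8% of ERV25 with RBD2 with MTX and no drug, beside 86.2% and 79.1% in trifluoperazine.

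Across strains, 2 of 361 (0.554%) differed in their MTX effect, 1 higher (0.277%) and 1 lower (0.277%), with 34 at an unadjusted p under 0.05. Barcode 40_2 was lower in trifluoperazine by 3.21 on the log2 scale (standard error 0.57, adjusted p = 0.014). The reference pool held 48.6% and 76.0% of its reads with MTX in trifluoperazine but 1.59% and 2.70% of those without MTX. There it held 0.239% and 0.260% with MTX in trifluoperazine and 1.91% and 2.84% with MTX and no drug. Outside that pool it held 0.00346% and 0.00160% with MTX in trifluoperazine and 0.00277% and 0.00310% without drug. Strain 984 was higher by 2.53 (standard error 0.54, adjusted p = 0.048). Of its reads with MTX in trifluoperazine, 91.6% and 84.1% lay in ADE17 with HYR1, where it held 45.5% and 18.2%, against 18.9% and 20.7% without drug. Outside that pool it held 0.0399% and 0.0345% with MTX in trifluoperazine and 0.0144% and 0.0109% without drug. Leaving out either trifluoperazine library without MTX left 0 strains called.

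The narrowing differed from that without drug in 6 of 62 pools (9.68%, limma, adjusted p under 0.05), 3 narrowing more (4.84%) and 3 less (4.84%). ALO1 with ADE17 went from 63.8 and 65.5 effective strains to 9.83 and 8.25 without drug, and from 66.5 and 62.4 to 3.35 and 3.63 in trifluoperazine (difference −1.36 on the log2 scale, adjusted p = 0.027). ERV25 with UIP4 went from 70.0 and 65.4 to 36.8 and 31.8 without drug and from 69.1 and 70.7 to 12.6 and 13.2 in trifluoperazine (−1.46, adjusted p = 0.042). PLM2 with HNM1 also narrowed more (−1.21, adjusted p = 0.042), from 60.5 and 63.5 to 3.79 and 5.90 in trifluoperazine and from 47.4 and 50.0 to 8.17 and 9.04 without drug. In all 3 pools the effective number with MTX was lower in trifluoperazine than without drug in both replicates, while without MTX it was close in both media for ALO1 with ADE17 and for ERV25 with UIP4. With strain 838 left out, the differences were 0.59, 0.09 and −0.21 in the same order, none of them called.

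The pools that narrowed less differed mainly, or also, in the cultures without MTX. RET2 with SNA3 held 11.9 and 29.1 effective strains without drug or MTX but 4.30 and 3.48 in trifluoperazine without MTX. With MTX it held 1.45 and 1.35 without drug and 1.59 and 1.78 in trifluoperazine (difference 2.54, adjusted p = 0.027). RET2 with EMP70 held 9.11 and 7.82 without drug or MTX against 4.26 and 3.96 in trifluoperazine, and with MTX 1.52 and 1.45 against 1.66 and 2.13 (1.38, adjusted p = 0.027). The reference pool held 114 and 140 without drug or MTX, against 112 and 50.4 in trifluoperazine, and with MTX 23.5 and 26.3 against 42.5 and 39.1 (1.46, adjusted p = 0.042). Without trifluoperazine replicate B without MTX, 0 of the 62 differences were called, and without any other of its 4 libraries 1 or 2.

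**Figure D5:**
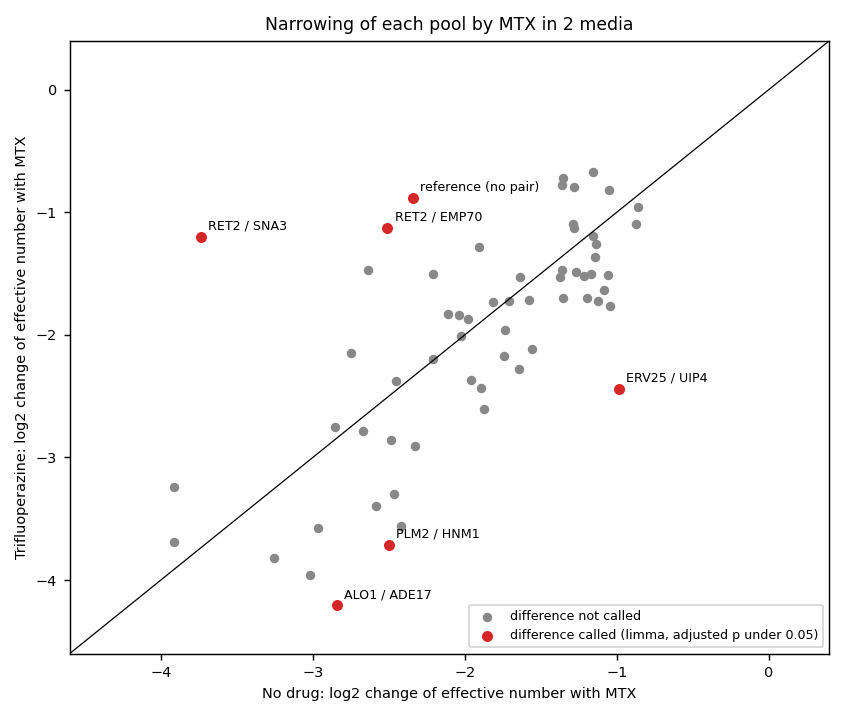
Log2 change of the effective number of strains with MTX, without drug on the horizontal axis and in trifluoperazine on the vertical axis, for 62 pools with the line of equal change. The 6 pools whose change differed by limma are red and named: 3 lie above the line and 3 below it, and the other pools differ from it by −1.14 to 1.16.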

How the data were processed

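Barcodes were amplified from genomic DNA by a 2-step PCR and sequenced, with PCR products combined by growth condition, per the labels' protocols. The authors deposited raw read counts, whole numbers per strain barcode and pool in each library. The aligner, read filter and barcode matching are not given in the sources used here. All 21 files hold counts, and 20 libraries taken at 96 h entered the fits; the library at time 0 was used only for shares.

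Shares are percentages of a pool's reads in a library. Combinations of strain and pool that averaged 10 reads or more in the 20 libraries (71.4% of 22382, with 99.6% of the reads in trifluoperazine) entered the quasi-likelihood test of edgeR 4.0.16, run in R 4.3.3 (1 coefficient per group over 10 groups, log pool total as offset). Counts summed per strain were tested with TMM scaling. The test against the reference pool put the counts of both pools in 1 model. Effective numbers of strains were tested on the log2 scale with limma 3.58.1. P-values were adjusted by Benjamini-Hochberg over each whole comparison, and adjusted p under 0.05 counts as called. A fold against a group at 0 reads used 3 reads per library. Correlations of MTX effects used log2 shares with 0.5 reads added.

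Replicate letters were not treated as pairs: deviations from the group means of same-lettered libraries correlated with r = 0.05 in trifluoperazine and −0.12 to 0.09 over 45 pairs of groups.

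Alternatives were TMM over whole libraries or within pools, total reads, filters of no reads minimum or 50 reads, filterByExpr, DESeq2 1.42.0, limma on mean log2 shares, only the groups compared, a replicate block, the inverse Simpson index, leaving out each replicate, and thinning of the reads by vegan 2.7.1. Pool totals without strain 838 and TMM over a pool and the reference pool together were added after the data were seen. The tests were tested on simulated data.

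The samples, families and naming rule were chosen with earlier results of these data known. The rule names pools at the ends of leader share, share called, narrowing, calls against the reference and replicate correlation, the pool with most calls in each family, their leaders and largest rises and falls, and strains with the largest summed changes, leading at least 3 pools or with the smallest p against no drug. Other items, such as strain 838 by protein, strains 676, 984, 540 and 857 in single pools and the 16 strains plotted (the leaders with MTX, the 5 largest summed falls and the largest summed rises tested in every pool), were chosen after their values were seen. All 44 proteins matched locus tags in RefSeq's yeast table (assembly R64), used for names only. No coordinates are given, since the files name no build.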

Additional observations from a re-analysis of the deposited data

Results flagged for a closer look

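The MTX effect in trifluoperazine differed from that without drug, by a test of the difference itself, for 2 strains and 6 pools. Strain 40_2 was lower by 3.21 (log2 difference −3.21) and strain 984 was higher by 2.53 (edgeR's quasi-likelihood test on summed reads). Barcode 40_2 was tested in only 2 pools, and most reads of strain 984 with MTX lay in ADE17 with HYR1. In log2 effective number of strains, the difference was −1.36 for ALO1 with ADE17, −1.46 for ERV25 with UIP4, −1.21 for PLM2 with HNM1, 1.46 for the reference pool, 1.38 for RET2 with EMP70 and 2.54 for RET2 with SNA3 (limma). The values of each in both media stand in the report. The part of pool depth, of strain 838 and of single libraries in these differences was not tested beyond the alternatives given next.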

How the results depend on the processing

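Of the counts and the median that answer the comparisons, those of MTX against no MTX held within 1.5 times under every scaling, filter and left-out replicate for strain and pool combinations (8263, range 5625 to 9524) and for strains (284, range 242 to 303), while the 1020 higher calls among the first ranged from 468 to 741 without a replicate and reached 2863 by TMM within each pool. The cause of the following moves was not tested. Without strain 838 in the totals, 36 pools in place of 61 were narrower and the median log2 difference was −0.84 in place of −1.73. The narrowing turned in direction for ERV25 with ORM2 (0.10) and PMC1 with CTR2 (0.056), neither past the threshold, and the difference from no drug turned for ALO1 with ADE17 (0.59) and ERV25 with UIP4 (0.088). By the inverse Simpson index the median was −2.07, and leaving out a replicate moved it between −1.88 and −1.71.

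Calls against no drug were few and unsteady. For strain and pool combinations DESeq2 gave 65 in place of 0, and leaving out a replicate gave 0 to 1. For strains, total reads gave 1 in place of 2, only the groups compared 4, DESeq2 12 and leaving out a replicate 0 to 6. For the 6 pools, the inverse Simpson index gave 2, totals without strain 838 gave 3 and leaving out a replicate 0 to 2. Against the reference pool the 3004 calls became 1801 at a minimum of 50 reads, 4697 with only the groups compared and 1096 to 1479 without a replicate.

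A replicate block gave 8149 calls in place of 8263, 2927 in place of 3004 and 283 strains in place of 284, and 3 in place of 6 pools against no drug. The letters pair no samples, so this is no sign of a weaker effect.

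Among single items, strain 673 turned to −0.45 by total reads and −0.81 by limma on mean log2 shares, and by the latter strain 252 turned to −0.33 and strain 36 to −0.41. By TMM over whole libraries strain 271 in HUG1 with ADE17 turned to 0.58 and strain 991 in GTR1 with SLM4 to 0.22. Leaving out an MTX replicate turned strain 187 in ERV25 with ORM2 to −0.17 and strain 335 in HUG1 with ADE17 to −0.25 (without the other replicate it was 3.605). A further 127 values fell below the threshold, 26 of them without replicate B without MTX, and 18 passed it. The thinnest pools limit the precision of rare strains.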

Other observations

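Strain 673 was the most common leader without MTX, in 23 pools, and held 9.64% of the reads at time 0, against 8.43% for strain 838. With MTX in trifluoperazine it led SNA4 with VAC8 at 35.9% and 26.5%, from 25.6% and 22.0% without MTX (edgeR's quasi-likelihood test, adjusted p = 0.45). It also led SRO9 with DHH1 and SSH1 with ERG11.

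Pools without MTX differed in who led them as well. Strain 959 led ERV25 with PIS1 at 29.7% and 25.3% and fell to 0.00651% and 0.00442% with MTX, where strain 838 led. Strain 857 led 3 pools without MTX and none with it.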
